A study of Mus musculus with 8 samples.

Results

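The genes described here are 45 regulators of the cell cycle, of the meiotic divisions and of DNA replication, chosen by name as a list and measured in germ cells of Hr6b knockout and wild type mice. This list and the other gene lists below were chosen with earlier results of these data known. Shares set beside those of all genes are therefore descriptions, and the part of the choice in them was not tested. Of these 45 genes, 44 had a probe set that the array annotation pairs with their symbol alone, out of 18193 genes measured in this way, and one probe set per gene, that with the highest mean log2 value over all arrays, stands for the gene. Ccnb1, which encodes cyclin B1, had no probe set under its symbol in the annotation used here and was not analysed here. Hr6b, listed as Ube2b on the array, encodes a ubiquitin-conjugating enzyme. RNA came from late spermatocytes and from round spermatids of Hr6b-/- males and Hr6b+/+ males on the FVB background, aged 4 to 5 weeks, and the cells had been separated by sedimentation and density centrifugation. Each of the 4 groups, which are wild type spermatocytes, knockout spermatocytes, wild type spermatids and knockout spermatids, was represented by 2 Affymetrix arrays. The knockout was constitutive, not limited to germ cells. The number of mice behind an array is not given in the sources used here, so that the p-values measure the spread between these preparations only.

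Progression through the cell cycle is driven by cyclin-dependent kinases (CDKs), which become active on binding a cyclin, are held back by WEE family kinases and are released by CDC25 phosphatases. Before DNA replication, CDC6 and CDT1 load the MCM helicase onto origins in a step called licensing. In division, the spindle checkpoint delays the separation of chromosomes until every kinetochore is attached, after which separase cuts the cohesin rings. Male germ cells replicate their DNA before meiosis, pass through a long prophase as spermatocytes, divide without an intervening replication and become haploid round spermatids, which no longer cycle.

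Signal in the text is the deposited normalised log2 value taken back to the linear scale. Signals of different probe sets are not comparable, and each gene is compared with itself between groups. Differences are log2 fold changes with their standard error from 1 limma model over 45037 probe sets and all 8 arrays, and a gene was called when the adjusted p was below 0.05. With 2 arrays against 2, an exact permutation test on a single gene cannot give a p below 0.333. The correlation between the arrays of a group lay between 0.995 and 0.997. Ube2b gave 2855 and 3349 in wild type spermatocytes, 833 and 824 in knockout spermatocytes, 4599.5 and 4612 in wild type spermatids and 951 and 1061 in knockout spermatids, a reduction of 3.73-fold in spermatocytes and of 4.58-fold in spermatids, and the position of its probe set relative to the disrupted part of the gene is not given in the sources used here. Of 13 measured round spermatid markers, 13 were higher in wild type spermatids than in wild type spermatocytes, and all 12 late spermatocyte markers, among them Sycp3 and Hspa2, reached a signal of 100 in wild type cells of both kinds. The late spermatocyte markers did not separate the 2 fractions, since 5 were lower and 3 higher in wild type spermatids (median log2 fold change -0.05), with a summed signal of 105075 and 106694 against 108363 and 111570 in wild type spermatocytes. In knockout spermatocytes, 7 of the 13 spermatid markers were called higher (53.8%, against 2.22% of all genes), with a summed signal of 23625 and 32450 against 5644 and 9169 in wild type spermatocytes. In knockout spermatids, 6 of 14 measured Sertoli cell markers were called higher (42.9%, against 6.93% of all genes). The summed signal of the 14 was 1498 and 1525, against 904 and 999 in wild type spermatids and 5926 to 7871 in spermatocytes. Of the 14, 6 stayed below a signal of 100 on every array.

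When spermatocytes were compared with spermatids in the wild type, the genes went both ways. Of the 44 genes, 20 were lower and 15 were higher in spermatids, and 9 were not called. Together 79.5% were called, where 53.3% of all probe sets and 63.2% of all genes with 1 probe set each were called. The lower share was 45.5% of the 44 genes, against 27.3% of all probe sets and 29.4% of all genes, and the higher share was 34.1%, against 26% and 33.7%. The median log2 fold change was -0.13 for the listed genes and 0.15 for all genes. Genes of DNA replication and of the G1 to S step were among the large losses, since Ccne2, Cdk2, Cdk4, Mcm3 and Mcm6, and with them the checkpoint gene Mad2l1, had measured signals at least 4-fold lower in spermatids. Ccnd3, Cdc25c, Plk1, Cdc25a, Wee1 and Ccna1 were at least 4-fold higher. For Ccne2, Mcm3, Ccnd3 and Cdc25c the dimmer wild type cells had a signal below 100 and were not shown to lie above background, and against 100 the fold was at least 12.8, 3.66, 22.6 and 5.97, respectively. Because a fraction holds many cells, fewer cells of a type and less RNA per cell cannot be told apart in these values.

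The knockout arrays gave a second, separate comparison of the same 2 cell types. Of the 44 genes, 22 were lower and 11 were higher in knockout spermatids than in knockout spermatocytes, or 75% called, against 63% of all probe sets (28.7% lower and 34.2% higher) and 72.7% of all genes. In both genotypes 19 genes were called lower and 10 were called higher, 6 were called in neither, 5 only in the wild type and 3 only in the knockout. Kif11 was called in opposite directions in the 2 genotypes. The median log2 fold change in the knockout was -0.38, and that of all genes was 0.21. Normalisation bears on these values, since the median of the probe sets with a signal of at least 100 on at least 4 arrays was lower in spermatids by 0.32 in the wild type and by 0.55 in the knockout on the log2 scale. When these medians were set equal, 19 genes were higher and 15 lower in wild type spermatids, and 18 were higher and 16 lower in knockout spermatids.

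**Figure D1:**
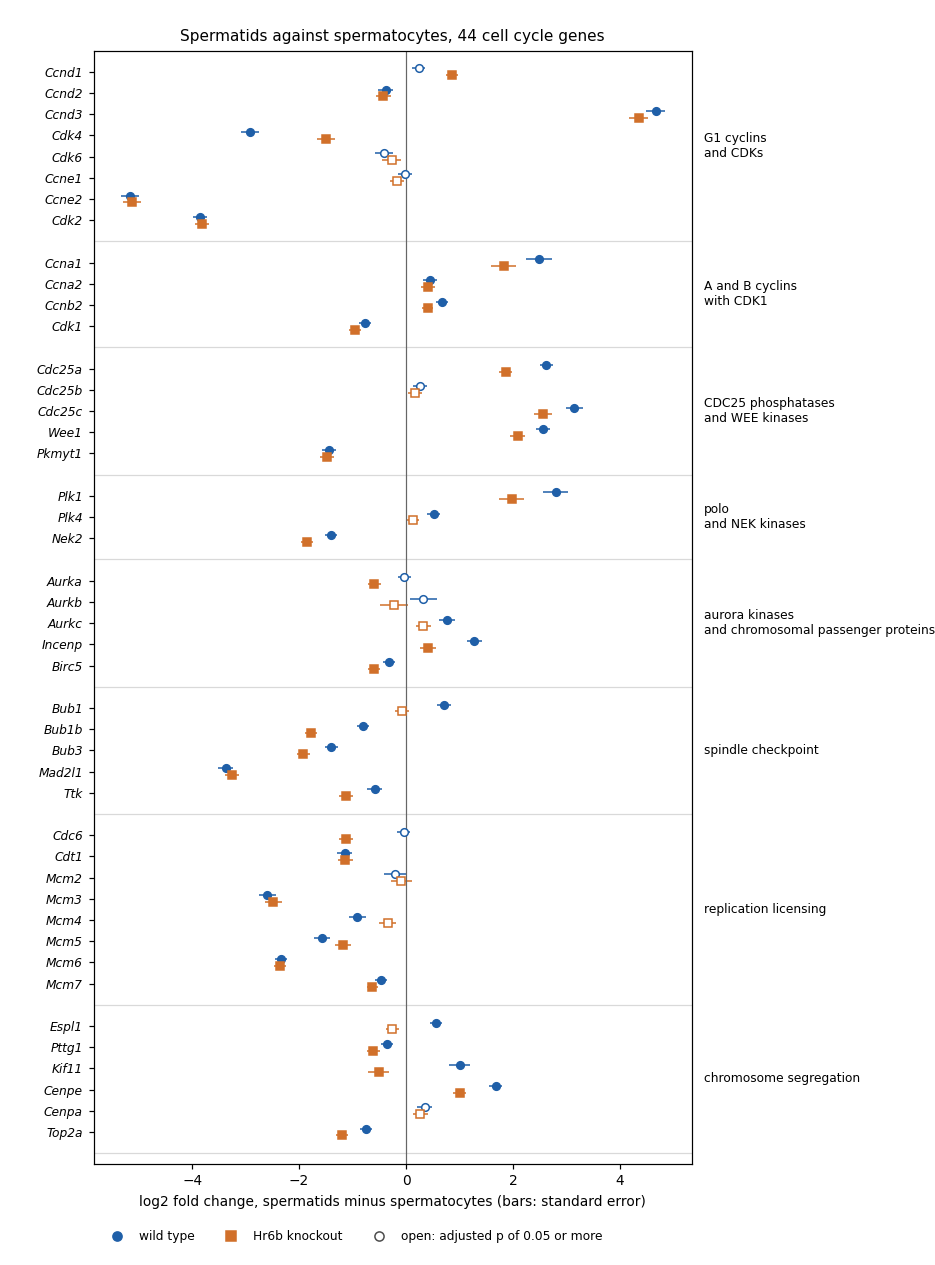
Log2 fold change between spermatids and spermatocytes (horizontal axis, spermatids minus spermatocytes) for each of the 44 genes, ordered by role, in wild type (circles) and knockout (squares), with standard errors from the limma model; open symbols had an adjusted p of 0.05 or more. Ccne2, at -5.17 in the wild type, and Ccnd3, at 4.67, mark the ends of the range, and the replication licensing genes all lie below 0.

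Between the genotypes, calls on the probe set used for each gene were made in spermatids and not in spermatocytes. In spermatocytes, 0 of the 44 genes were called by limma, where 1.59% of all probe sets (1.18% higher and 0.413% lower) and 2.73% of all genes were called. A count of 0 lies near these shares and is not read as a result about the listed genes. Of the 44, 4 genes, Ccnd3, Cdc25a, Plk4 and Mcm4, had an unadjusted p below 0.05. The smallest adjusted p among the 44 was 0.215, and the median log2 fold change was 0.0047, so that 22 genes lay above 0 and 22 below. In spermatids, 13 genes were lower in the knockout and 1, Cdk4, was higher, or 31.8% called, against 14.5% of all probe sets and 19.8% of all genes. The lower share was 29.5%, against 9.63% of all probe sets and 12.9% of all genes, and the higher share was 2.27%, against 4.83% and 6.93%. The median was -0.24 for the 44 genes and 0.014 for all genes, with 34 genes below 0. The 2 knockout arrays lay outside the range of the 2 wild type arrays for 30 genes in spermatids, 26 of them lower. In spermatocytes this held for 22 genes, 11 of them lower. By order alone, 2 arrays against 2 lie apart with a probability of 0.333, and the share over all genes was not counted. These counts are therefore not read as a result about the listed genes. The wild type spermatid arrays also enter the wild type stage comparison, so that the 2 sets of values are not independent.

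The 13 genes that were lower in knockout spermatids encode mainly proteins of the spindle checkpoint and of chromosome segregation. They were 4 of 5 spindle checkpoint genes, 4 of 6 chromosome segregation genes, 2 of 5 genes of the aurora kinases and passenger proteins, 1 of 3 polo and NEK kinases, 1 of 5 CDC25 and WEE genes and 1 of 8 licensing genes. None of the 4 measured A and B cyclin and CDK1 genes and none of the 8 G1 genes was called lower. Of all genes, 12.9% were called lower. An absence or a single call in a group this small is not read as a result about that group. The count depended on normalisation and on single arrays. It was 5 after cyclic loess and 7 with equal medians of the expressed probe sets, whose median was lower by 0.20 in knockout spermatids on the log2 scale. It was 3 without knockout spermatid replicate 1 and 4 without wild type spermatid replicate 1. Bub1b, Espl1 and Cdc6 were called lower, and Cdk4 higher, under all 19 alternatives tried.

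Other transcripts moved with this comparison. The summed signal of the 12 late spermatocyte markers was 93299 and 94660 in knockout spermatids against 105075 and 106694 in wild type spermatids. Of the 12, 11 lay below 0, with a median log2 fold change of -0.29 against 0.014 for all genes. The 2 called lower were 16.7% of the 12, a share near the 12.9% of all genes. Ccna1 belongs both to that marker list and to the genes described here. The part of these shifts and of the Sertoli cell markers in the results was not tested.

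**Figure D2:**
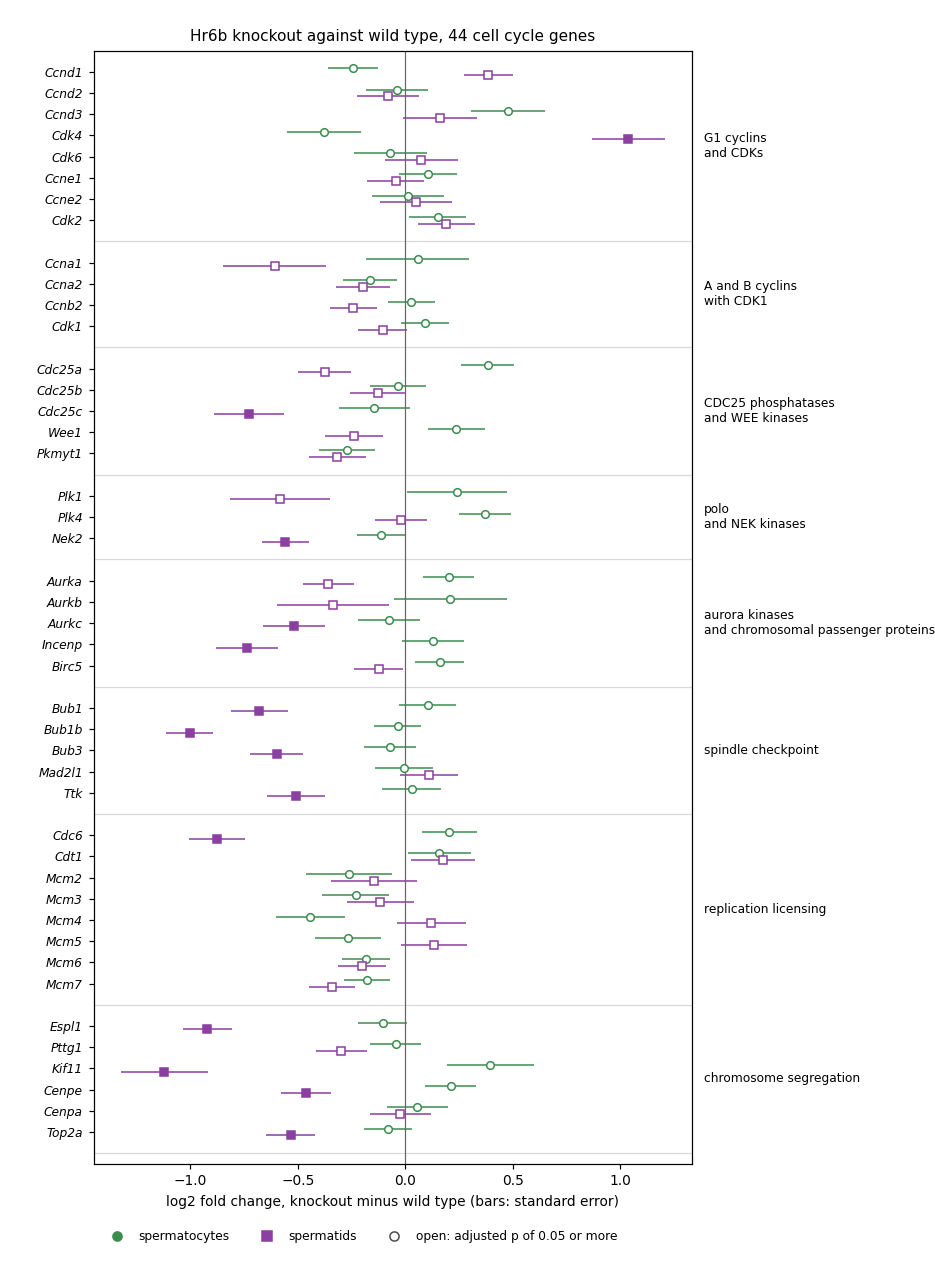
Log2 fold change between knockout and wild type (horizontal axis, knockout minus wild type) for each of the 44 genes, ordered by role, in spermatocytes (circles) and spermatids (squares), with standard errors from the limma model; open symbols had an adjusted p of 0.05 or more. No spermatocyte symbol is filled, and the 13 filled spermatid squares left of 0 are mostly spindle checkpoint and chromosome segregation genes, while Cdk4 at 1.04 is the filled square right of 0.

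The replication licensing genes were lower or not called after meiosis. All 8 genes had log2 fold changes below 0 in both genotypes, and 6 were called lower in each. Mcm3, a subunit of the MCM helicase, gave 361 and 371 in wild type spermatocytes, 304 and 319 in knockout spermatocytes, 54.9 and 66.9 in wild type spermatids and 64.6 and 48.3 in knockout spermatids. Its signal fell 6.03-fold in the wild type (log2 fold change -2.59 ± 0.16, limma adjusted p = 1.82e-07), and the spermatocyte and spermatid arrays stood far apart in both genotypes. Mcm6 was 5.07-fold lower and Mcm5 was 2.98-fold lower in wild type spermatids. The smaller losses were 2.22-fold for Cdt1, the loading factor, 1.88-fold for Mcm4 and 1.38-fold for Mcm7. Cdt1 signals ran only from 37.5 to 112, and Mcm2 signals ran from 19.5 to 31.9, below a signal of 100 on every array. None of the 6 MCM genes was called between genotypes in either cell type on the probe set used here, whereas the second Mcm2 probe set, at 14.6 to 36.3 over all arrays, was called lower in knockout spermatocytes (-0.88 ± 0.14, limma adjusted p = 0.0151).

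Cdc6, which recruits the helicase together with CDT1, behaved otherwise. Its signal was 259 and 217 in wild type spermatocytes, 272 and 274 in knockout spermatocytes, 232 and 227 in wild type spermatids and 116 and 135 in knockout spermatids. Both knockout spermatid arrays lay below every other array. The stage difference was -0.05 ± 0.13 in the wild type (limma adjusted p = 0.781) and -1.13 ± 0.13 in the knockout (2.56e-05). Between genotypes the spermatid difference was -0.87 ± 0.13 (limma adjusted p = 0.00232), and the difference between the 2 cell types in the genotype effect was -1.08 ± 0.18 (0.0157).

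The promoter windows of Mcm6 and Mcm5 are shown as examples of licensing genes that carried E2F letters. E2F factors are known to drive genes needed for replication. The windows run from 250 bases before to 50 after the start in RefSeq (build GRCm38.p6), those of Mcm6 at chr1:128359656-128359955 on the minus strand and of Mcm5 at chr8:75109259-75109558 on the plus strand, written along the gene. Capitals mark matches on either strand to the E2F letters (TTTCGCGC, or TTTGGCGC, or GGCGGGAA), to the CCAAT box, read ATTGG on the other strand, and to the cAMP response element TGACGTCA. The E2F runs in capitals are longer where TTTCGCGC on one strand overlaps TTTGGCGC on the other.
Mcm6: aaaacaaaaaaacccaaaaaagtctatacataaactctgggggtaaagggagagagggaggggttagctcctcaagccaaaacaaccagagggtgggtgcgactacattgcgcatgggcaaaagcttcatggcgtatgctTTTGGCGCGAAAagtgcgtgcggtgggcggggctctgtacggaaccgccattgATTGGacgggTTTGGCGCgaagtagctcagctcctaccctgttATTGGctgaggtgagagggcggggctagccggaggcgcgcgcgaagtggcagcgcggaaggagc
Mcm5: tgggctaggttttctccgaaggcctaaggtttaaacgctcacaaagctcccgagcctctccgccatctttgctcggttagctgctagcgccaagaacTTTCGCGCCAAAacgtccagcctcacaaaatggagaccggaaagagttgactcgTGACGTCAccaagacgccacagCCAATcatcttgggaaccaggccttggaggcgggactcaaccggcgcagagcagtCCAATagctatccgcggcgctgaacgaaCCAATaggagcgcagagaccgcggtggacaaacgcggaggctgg

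E2F letters occurred in 5 of the 7 licensing genes with a window, namely Cdt1, Mcm3, Mcm5, Mcm6 and Mcm7, and in 2.96% of all 32851 windows. Among the 34 listed genes with a window, 7 held them, the other two being Cdk1 and Cdc25a. A match is a description of letters only.

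Among the genes of the G1 phase and of S phase entry, 4 of 8 were lower in wild type spermatids and 1 was higher, and paralogs differed. Ccne2, which encodes a cyclin E, gave 1165 and 1416 in wild type spermatocytes, 1171 and 1435 in knockout spermatocytes, 38.6 and 33.0 in wild type spermatids and 32.9 and 41.7 in knockout spermatids. This was the largest measured loss of the list (36.0-fold, log2 fold change -5.17 ± 0.17, limma adjusted p = 3.12e-09), and the knockout loss was 35.0-fold. The spermatid signals were not shown to lie above background, and against a signal of 100 in their place the losses were at least 12.8-fold and 13.0-fold. Its paralog Ccne1 gave 246 and 211 in wild type spermatocytes, 245 and 246 in knockout spermatocytes, 202 and 249 in wild type spermatids and 216 and 219 in knockout spermatids, with overlapping groups and a log2 fold change of -0.02 ± 0.13. Cdk2, the kinase partner of cyclin E, which is also required in meiotic prophase, gave 3548 and 3009 in wild type spermatocytes, 3574 and 3682 in knockout spermatocytes, 230.2 and 223 in wild type spermatids and 235 and 284 in knockout spermatids. The loss was 14.4-fold in the wild type and 14.0-fold in the knockout (limma adjusted p = 4.49e-09 and 6.04e-09). A second Cdk2 probe set was near 0 on the log2 scale in both stage comparisons (0.05 and 0.08). Its signals of 7.92 to 10.3 over all arrays were not shown to lie above background, so it cannot show a loss.

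The D cyclins, which activate CDK4 and CDK6, went in different directions. Ccnd3 gave 95.1 and 83.7 in wild type spermatocytes, 141 and 109 in knockout spermatocytes, 1982 and 2585 in wild type spermatids and 2741 and 2340.5 in knockout spermatids. It was the largest gain of the list, 25.4-fold in the wild type (log2 fold change 4.67 ± 0.17, limma adjusted p = 6.33e-09) and 20.4-fold in the knockout, although its other two probe sets gave only 0.25 and 0.33 in the wild type. Ccnd1 gave 65.5 and 65.5 in wild type spermatocytes, 58.6 and 52.3 in knockout spermatocytes, 73.6 and 80.5 in wild type spermatids and 99.2 and 102 in knockout spermatids. Its 2 knockout spermatid arrays were the highest, the stage difference was called in the knockout only (0.86 ± 0.12, limma adjusted p = 8.17e-05), and the genotype difference in spermatids was 0.39 ± 0.12 (0.0505). Another Ccnd1 probe set, also below a signal of 100, was called higher in knockout spermatids (0.56 ± 0.13, limma adjusted p = 0.0205), with an effect that differed between cell types by 0.92 ± 0.19 (0.0305). Ccnd2 was dim, with 65.3 and 54.1 in wild type spermatocytes, 58.9 and 56.9 in knockout spermatocytes, 40.5 and 51.3 in wild type spermatids and 44.7 and 41.6 in knockout spermatids, and its stage loss was -0.38 ± 0.15 in the wild type (limma adjusted p = 0.0476). Cdk6 gave 229 and 162 in wild type spermatocytes, 196 and 172 in knockout spermatocytes, 158 and 131 in wild type spermatids and 152 and 152 in knockout spermatids, without a call in any comparison.

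Cdk4 was the one listed gene that was higher in knockout spermatids on the probe set used for it. Its signal was 857 and 1134 in wild type spermatocytes, 740.2 and 777 in knockout spermatocytes, 113 and 151 in wild type spermatids and 279 and 258 in knockout spermatids. Both spermatid groups lay below both spermatocyte groups, and the knockout spermatids lay above the wild type spermatids. The loss after meiosis was 7.52-fold in the wild type and 2.82-fold in the knockout, the genotype difference in spermatids was 1.04 ± 0.17 (limma adjusted p = 0.00379), and that in spermatocytes was -0.38 ± 0.17 (0.456). The genotype effect differed between the cell types by 1.41 ± 0.24 (limma adjusted p = 0.016). All 3 Cdk4 probe sets were called higher in knockout spermatids, at 1.04 to 1.25. The summed signal of the Sertoli cell markers given above shared this order of groups, lowest in wild type spermatids and highest in spermatocytes. Not every marker did so singly. Of the 14, 8 were called lower and 1 higher in wild type spermatids than in wild type spermatocytes. In the knockout 7 were called lower and 4 higher. The part of these markers in the Cdk4 value was not tested.

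The cyclins of division were higher in spermatids, and their kinase was lower. Ccna1, the germ cell cyclin A required for the male meiotic divisions, gave 976 and 522 in wild type spermatocytes, 831 and 664 in knockout spermatocytes, 4123 and 3885 in wild type spermatids and 2625 and 2629 in knockout spermatids. Spermatids were 5.61-fold higher in the wild type and 3.54-fold higher in the knockout, and the knockout spermatids were below the wild type spermatids without passing the test (-0.61 ± 0.24, limma adjusted p = 0.13). Ccna2, the cyclin A of most dividing cells, gave 168 and 164 in wild type spermatocytes, 148 and 148 in knockout spermatocytes, 208 and 245 in wild type spermatids and 184 and 211 in knockout spermatids, a stage gain of 1.36-fold in the wild type. A second Ccna2 probe set gave -0.41 and was not called. Ccnb2, a B cyclin, gave 5476 and 5252 in wild type spermatocytes, 5419 and 5523 in knockout spermatocytes, 8842 and 8282 in wild type spermatids and 7351 and 7136 in knockout spermatids. The gain was 1.6-fold in the wild type (limma adjusted p = 0.000352) and 1.32-fold in the knockout. Cdk1, the kinase that binds them, fell 1.7-fold in the wild type and 1.94-fold in the knockout, within a range of 919 to 1864 over the 8 arrays. All 4 genes had genotype differences below 0 in spermatids, of which 0 passed the test.

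Cdc25a, Cdc25c and Wee1, whose products act on CDKs in opposite ways, were higher in spermatids, and Pkmyt1 was lower. Cdc25c gave 76.9 and 59.0 in wild type spermatocytes, 54.6 and 68.2 in knockout spermatocytes, 547 and 652 in wild type spermatids and 357 and 364 in knockout spermatids. The 2 groups of spermatocytes overlapped, and both spermatid groups lay far above them. The gain was 8.86-fold in the wild type and 5.91-fold in the knockout, and knockout spermatids were 1.66-fold lower than wild type spermatids (-0.73 ± 0.16, limma adjusted p = 0.0161), on both of its probe sets. Cdc25a gave 348 and 304 in wild type spermatocytes, 442 and 407 in knockout spermatocytes, 2095 and 1904 in wild type spermatids and 1505 and 1576 in knockout spermatids. Knockout arrays lay above the wild type in spermatocytes (0.38 ± 0.12, limma adjusted p = 0.215) and below it in spermatids (-0.37 ± 0.12, 0.0691), neither of which was called, whereas the difference between these 2 effects was called (-0.76 ± 0.17, 0.0396). Cdc25b was at 18.2 and 14.4 in wild type spermatocytes, 16.1 and 15.6 in knockout spermatocytes, 19.1 and 19.7 in wild type spermatids and 17.8 and 17.8 in knockout spermatids, below a signal of 100 on every array, with no call.

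Wee1, the nuclear inhibitory kinase, gave 194 and 222 in wild type spermatocytes, 256 and 234 in knockout spermatocytes, 1283 and 1172 in wild type spermatids and 948 and 1137 in knockout spermatids, a gain of 5.91-fold in the wild type (limma adjusted p = 6.76e-08). Its other probe set was called in the opposite direction (-1.29). Pkmyt1, the membrane-bound kinase of the family, was 2.7-fold lower in wild type spermatids and 2.78-fold lower in knockout spermatids, and its second probe set was called higher (0.38 and 1.10). Neither kinase was called between genotypes on the probe set used here. The second Pkmyt1 probe set gave 519 and 511 in wild type spermatids and 817 and 774 in knockout spermatids, and was called higher in the knockout (0.63 ± 0.11, limma adjusted p = 0.0063), with an effect that differed between cell types by 0.72 ± 0.16 (0.038).

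Of the kinases that act on centrosomes, Plk1 was higher and Nek2 was lower in spermatids. Plk1, the polo kinase of mitotic entry, gave 588 and 317 in wild type spermatocytes, 540.2 and 483 in knockout spermatocytes, 2864 and 3156 in wild type spermatids and 2083 and 1939 in knockout spermatids. Spermatids were 6.96-fold higher in the wild type and 3.94-fold higher in the knockout. The knockout spermatid arrays lay below the wild type ones, without a call (-0.58 ± 0.23, limma adjusted p = 0.133). Nek2, which promotes centrosome separation, gave 11081 and 10305 in wild type spermatocytes, 10057 and 9707 in knockout spermatocytes, 4169.8 and 3907 in wild type spermatids and 2711 and 2776 in knockout spermatids. It fell 2.65-fold after meiosis in the wild type and 3.6-fold in the knockout, and the knockout spermatids were 1.47-fold lower than the wild type spermatids (-0.56 ± 0.11, limma adjusted p = 0.00912), a call made on 1 of its 4 probe sets. Plk4, the kinase of centriole duplication, was 1.43-fold higher in wild type spermatids within a range of 1709.5 to 2646, and was not called in the knockout (0.13 ± 0.12). One of its other probe sets fell by 3.20 on the log2 scale.

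The 3 aurora kinases differed in their stage pattern and had genotype differences below 0 in spermatids, of which 1 was called. Aurka, the kinase of spindle poles, gave 5013 and 4445 in wild type spermatocytes, 5691 and 5192 in knockout spermatocytes, 4774 and 4444 in wild type spermatids and 3516 and 3678 in knockout spermatids. It did not differ between the wild type cell types by the test (-0.04 ± 0.12, limma adjusted p = 0.821) and was lower in knockout spermatids than in knockout spermatocytes (-0.60 ± 0.12, 0.00142). Aurkb, the kinase of the chromosomal passenger complex, gave 353 and 172 in wild type spermatocytes, 301 and 269.6 in knockout spermatocytes, 310.1 and 308 in wild type spermatids and 233 and 258 in knockout spermatids, with a wide spread in wild type spermatocytes and no call. Aurkc, its germ cell paralog, gave 1539.5 and 1175 in wild type spermatocytes, 1346 and 1207 in knockout spermatocytes, 2356 and 2218 in wild type spermatids and 1536 and 1658 in knockout spermatids. It rose 1.7-fold in wild type spermatids (limma adjusted p = 0.00111), and knockout spermatids were 1.43-fold lower than wild type spermatids (-0.52 ± 0.14, 0.0396).

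Incenp, the scaffold of the passenger complex, gave 1636 and 1396 in wild type spermatocytes, 1692 and 1614 in knockout spermatocytes, 3969 and 3379 in wild type spermatids and 2000.3 and 2417 in knockout spermatids. Wild type spermatids were highest and knockout spermatids lay between them and the spermatocytes. The gain after meiosis was 2.42-fold in the wild type and 1.33-fold in the knockout, the genotype difference in spermatids was -0.74 ± 0.14 (limma adjusted p = 0.00826), and the effect differed between cell types by -0.86 ± 0.20 (0.0425). Of 5 Incenp probe sets, 3 were called lower in knockout spermatids. Birc5, which encodes survivin, was 1.25-fold lower in wild type spermatids (0.0011 on the log2 scale with equal medians) and 1.52-fold lower in knockout spermatids, with no genotype call.

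In the main analysis, the spindle checkpoint genes formed the group with the largest share of calls in knockout spermatids. On the probe sets used, 4 of 5 were called (80%, against 19.8% of all genes). After cyclic loess only Bub1b of these was called, and with equal medians of the expressed probe sets Bub1, Bub1b and Bub3 were. The calls other than that of Bub1b also depended on single arrays. Bub1b, which encodes BUBR1, an inhibitor of the anaphase-promoting complex, gave 3404 and 3152 in wild type spermatocytes, 3203 and 3189.9 in knockout spermatocytes, 1912 and 1828 in wild type spermatids and 918 and 949 in knockout spermatids. The spermatocyte groups overlapped, and the knockout spermatids lay far below the wild type spermatids (2-fold lower, -1.002 ± 0.11, limma adjusted p = 0.000629). The effect differed between the cell types by -0.97 ± 0.15 (limma adjusted p = 0.0134), and the fall after meiosis was 1.75-fold in the wild type and 3.42-fold in the knockout. Of its 3 probe sets, 2 were called lower in knockout spermatids, and the third gave 0.07.

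Bub1, the kinase that gathers checkpoint proteins at kinetochores, gave 2498 and 2845 in wild type spermatocytes, 2712 and 3027 in knockout spermatocytes, 4668 and 4093 in wild type spermatids and 2576 and 2896 in knockout spermatids. Wild type spermatids exceeded all other arrays, and the other 3 groups overlapped. The stage difference was 0.71 ± 0.13 in the wild type (limma adjusted p = 0.000935) and -0.07 ± 0.13 in the knockout (0.665), and the genotype difference in spermatids was -0.68 ± 0.13 (0.00827). The effect differed between cell types by -0.78 ± 0.19 (limma adjusted p = 0.0454). The second Bub1 probe set gave -0.60 between genotypes in spermatids and was not called. Bub3, the partner of BUB1 and BUBR1, gave 5705 and 5946 in wild type spermatocytes, 5567 and 5534 in knockout spermatocytes, 2366 and 2067 in wild type spermatids and 1370.5 and 1556 in knockout spermatids. It fell 2.63-fold after meiosis in the wild type and 3.8-fold in the knockout, and the knockout spermatids were 1.51-fold below the wild type ones (-0.60 ± 0.12, limma adjusted p = 0.0102). Of the 5 Bub3 probe sets, 3 lay below 0 in this comparison and 2 were called lower, while the highest gave 0.45 and was not called.

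Ttk, the kinase also called MPS1, gave 1808 and 1966 in wild type spermatocytes, 1953 and 1897 in knockout spermatocytes, 1358 and 1162 in wild type spermatids and 799 and 975 in knockout spermatids. The genotype difference in spermatids was -0.51 ± 0.14 (limma adjusted p = 0.034), but its second probe set was called in the other direction (0.54), so that the call holds for 1 probe set only. Mad2l1, the checkpoint protein that binds CDC20, gave 1231 and 1529.8 in wild type spermatocytes, 1287 and 1455 in knockout spermatocytes, 134 and 130.2 in wild type spermatids and 138 and 148 in knockout spermatids. Its fall after meiosis was 10.4-fold in the wild type (log2 fold change -3.38 ± 0.13, limma adjusted p = 1.03e-08) and 9.57-fold in the knockout. The spermatid groups did not differ by the test (0.11 ± 0.13, limma adjusted p = 0.646), so Mad2l1 was the one checkpoint gene of the list without a genotype call.

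In the chromosome segregation group, 4 of 6 genes were lower in knockout spermatids (66.7%, against 12.9% of all genes). Espl1, which encodes separase, gave 2565 and 2235 in wild type spermatocytes, 2197 and 2259.5 in knockout spermatocytes, 3481 and 3587 in wild type spermatids and 1885 and 1848 in knockout spermatids. Wild type spermatids were the highest and knockout spermatids the lowest group, with no overlap between them. The genotype difference in spermatids was -0.92 ± 0.11 (1.89-fold, limma adjusted p = 0.00111), and the effect differed between cell types by -0.82 ± 0.16 (0.0269). The stage difference was 0.56 ± 0.11 in the wild type (limma adjusted p = 0.00188) and -0.26 ± 0.11 in the knockout (0.0754). Pttg1, which encodes securin, the inhibitor of separase, was 1.28-fold lower in wild type spermatids and gave -0.30 ± 0.12 between genotypes in spermatids, without a call, although another of its probe sets was called lower (-0.45, limma adjusted p = 0.0317).

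Kif11, the kinesin that pushes spindle poles apart, gave 106 and 171 in wild type spermatocytes, 186 and 168 in knockout spermatocytes, 298 and 242 in wild type spermatids and 120.4 and 127 in knockout spermatids. Its knockout spermatid arrays lay below both wild type spermatid arrays and below both knockout spermatocyte arrays. The genotype difference in spermatids was -1.12 ± 0.20 (2.17-fold, limma adjusted p = 0.00599), the largest loss of the list, and the effect differed between cell types by -1.52 ± 0.29 (0.0225). The stage difference was 1.00 ± 0.20 in the wild type and -0.52 ± 0.20 in the knockout, and the latter was 0.039 with equal medians of the expressed probe sets. Of its 3 probe sets, 2 were called lower in knockout spermatids. The other two probe sets were called lower in wild type spermatids than in spermatocytes (-2.95 and -1.59), against the gain of the probe set used here.

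Cenpe, the kinesin of kinetochores, gave 648 and 635 in wild type spermatocytes, 749 and 735 in knockout spermatocytes, 2183 and 1924 in wild type spermatids and 1411 and 1569.6 in knockout spermatids. It was 3.2-fold higher in wild type spermatids and 2.01-fold higher in knockout spermatids than in the respective spermatocytes, and the genotype difference in spermatids was -0.46 ± 0.12 (limma adjusted p = 0.0279) and was called on both of its probe sets. Top2a, the topoisomerase that untangles sister chromatids, gave 4353 and 4709.9 in wild type spermatocytes, 4214 and 4356 in knockout spermatocytes, 2770.4 and 2606 in wild type spermatids and 1784 and 1934 in knockout spermatids. It fell 1.69-fold after meiosis in the wild type and 2.31-fold in the knockout, and the genotype difference in spermatids was -0.53 ± 0.11 (limma adjusted p = 0.0124), while its other two probe sets gave 0.13 and 0.24 and were not called. Cenpa, the centromeric histone, stayed at 25.7 to 38.7 over all arrays with no call.

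**Figure D3:**
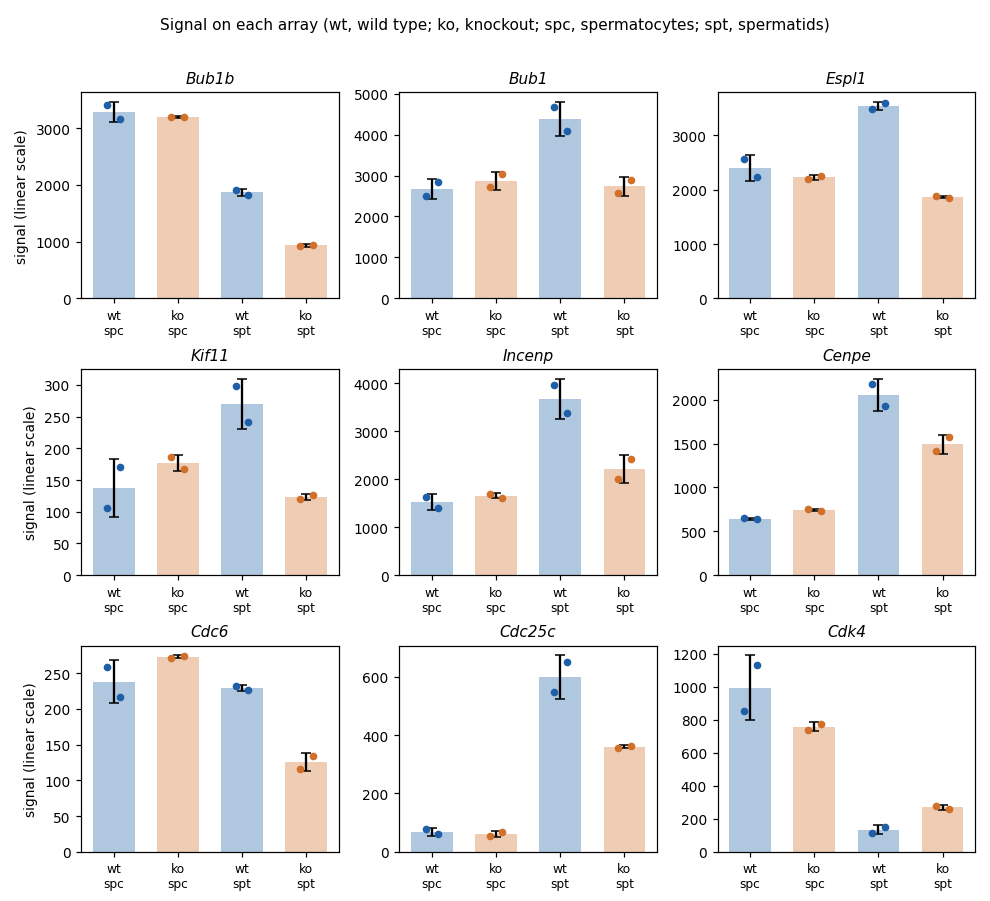
Signal (vertical axis, linear scale from 0) of 9 genes on each array, with dots for arrays, bars for the mean of 2 arrays and error bars for the SD, in wild type (blue) and knockout (orange) spermatocytes (spc) and spermatids (spt). Bub1b falls from 1912 and 1828 in wild type spermatids to 918 and 949 in knockout spermatids while its spermatocyte groups overlap, and Cdk4 moves the other way in spermatids.

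Promoter windows are shown for Bub1b, Espl1, Kif11 and Top2a, which were lower together in knockout spermatids and carried the letters of the cell cycle genes homology region (CHR), an element known from genes that are active in G2 and in division. They are RefSeq windows of 300 bases (GRCm38.p6) at chr2:118597961-118598260, chr15:102296043-102296342 and chr19:37376132-37376431 on the plus strand and chr11:99024140-99024439 on the minus strand, written along the gene. Capitals mark the CHR letters TTTGAA, which appear as TTCAAA where the match is on the other strand, their variant TTCGAA, which reads alike on both strands, and the CCAAT box, which appears as ATTGG on the other strand. No match overlapped another in these windows.
Bub1b: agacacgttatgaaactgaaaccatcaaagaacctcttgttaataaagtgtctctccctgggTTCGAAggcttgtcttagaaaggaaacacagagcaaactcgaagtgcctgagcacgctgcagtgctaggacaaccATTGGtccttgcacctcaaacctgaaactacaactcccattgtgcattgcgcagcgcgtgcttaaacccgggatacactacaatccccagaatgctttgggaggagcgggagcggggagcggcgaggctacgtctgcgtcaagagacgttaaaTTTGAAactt
Espl1: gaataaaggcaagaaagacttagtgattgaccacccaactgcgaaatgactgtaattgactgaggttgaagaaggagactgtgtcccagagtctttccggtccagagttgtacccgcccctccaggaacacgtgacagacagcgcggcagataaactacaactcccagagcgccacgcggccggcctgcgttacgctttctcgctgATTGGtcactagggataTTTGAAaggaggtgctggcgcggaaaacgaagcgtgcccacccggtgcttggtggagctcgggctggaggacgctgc
Kif11: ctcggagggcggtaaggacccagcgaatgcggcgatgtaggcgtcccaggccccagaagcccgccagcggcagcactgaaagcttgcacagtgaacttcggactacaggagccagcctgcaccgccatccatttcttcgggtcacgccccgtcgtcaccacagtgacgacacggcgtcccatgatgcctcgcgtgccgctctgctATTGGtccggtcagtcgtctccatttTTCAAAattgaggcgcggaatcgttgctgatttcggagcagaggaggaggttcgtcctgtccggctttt
Top2a: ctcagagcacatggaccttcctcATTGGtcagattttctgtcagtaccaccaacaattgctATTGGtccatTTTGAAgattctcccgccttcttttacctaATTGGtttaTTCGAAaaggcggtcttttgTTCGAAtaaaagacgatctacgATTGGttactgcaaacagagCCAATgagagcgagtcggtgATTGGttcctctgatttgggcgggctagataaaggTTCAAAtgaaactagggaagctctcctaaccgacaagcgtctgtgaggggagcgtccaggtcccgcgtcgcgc

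In Espl1 the CCAAT box began 44 and the CHR 27 bases before the start, and in Kif11 they began 45 and 19 bases before it. Top2a held 6 CCAAT boxes and 4 CHR matches. Of the 13 genes lower in knockout spermatids, 11 had a window, and 7 of these held CHR letters, namely Bub1, Bub1b, Bub3, Ttk, Espl1, Kif11 and Top2a, whereas 8 of the 23 other listed genes with a window held them. The share over all windows was 19.2%. CCAAT boxes were present in 10 of the 11 and in 15 of the 23, against 37.4% of all windows. E2F letters were present in 0 of the 11 and in 7 of the 23. The cAMP response element letters were found in Mcm5 and Cenpe, 2 of 34 listed genes, against 1.79% of all windows. The genes were listed as cell cycle genes, for which these letters are known, and nothing about a factor follows from a match.

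The difference between the genotype effects in the 2 cell types was tested directly. Of the 44 genes, 8 were called (18.2%), where 4.6% of all probe sets (1.46% higher and 3.14% lower) and 6.72% of all genes were called. On the probe sets used, Cdk4 was the one with a higher effect in spermatids. Cdc25a, Incenp, Bub1, Bub1b, Cdc6, Espl1 and Kif11 were the 7 with a lower one. The lower call was made on 1 of 5 probe sets of Incenp, 1 of 3 of Kif11 and of Cdc25a, 1 of 2 of Bub1 and 2 of 3 of Bub1b. Other probe sets of 5 further genes were also called. Those of Ccnd1 (0.92), Pkmyt1 (0.72), Ttk (1.01) and Mcm2 (1.17) were higher, and that of Cenpe (-0.93) was lower. Markers of cell types moved in the same contrast. All 13 round spermatid markers lay below 0 (5 called lower, 38.5% against 4.61% of all genes, median -1.01). All 12 late spermatocyte markers lay below 0 (median -0.28). All 14 Sertoli cell markers lay above 0 (4 called higher, 28.6% against 2.11% of all genes, median 0.70). The part of these markers in the 8 calls was not tested. The median over the 44 genes was -0.28, and that over all genes was -0.015. No call of this kind remained at an adjusted p below 0.01, and the number lower was 3 with equal medians of the expressed probe sets, a scaling under which Bub1b, Cdc6 and Kif11 were called.

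Several genes were represented by probe sets that disagreed. In wild type cells, 6 genes, Wee1, Pkmyt1, Plk4, Incenp, Bub1 and Kif11, had probe sets called in both directions between the cell types. In knockout cells this held for 6 genes as well, namely Wee1, Pkmyt1 and Incenp again and Ccnd2, Cdk6 and Nek2. The direction of these genes after meiosis holds only for the probe set with the highest mean. The probe sets used for Ccnd2, Cdk4, Ccne1, Aurkb, Incenp and Mcm5 carry the manufacturer's x suffix, given where probes can match other sequences. Those used for Nek2, Bub3, Mcm2, Mcm7 and Pttg1 carry the s suffix, given where probes are shared by several transcripts. Of the 44 genes, 6, namely Ccnd1, Ccnd2, Cdc25b, Cdt1, Mcm2 and Cenpa, did not reach a signal of 100 on 4 arrays, and none of the calls between genotypes on the probe sets used for the genes came from them.

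**Figure D4:**
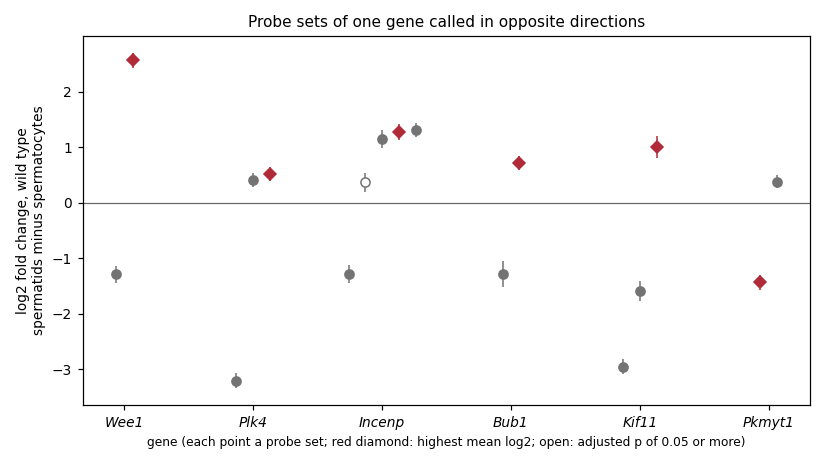
Log2 fold change between wild type spermatids and spermatocytes (vertical axis) for every probe set of the 6 genes with calls in both directions, with standard errors; the red diamond is the probe set used for the gene and open circles had an adjusted p of 0.05 or more. For Kif11 the probe set used gives 1.00 and the other two -1.59 and -2.95.

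**Figure D5:**
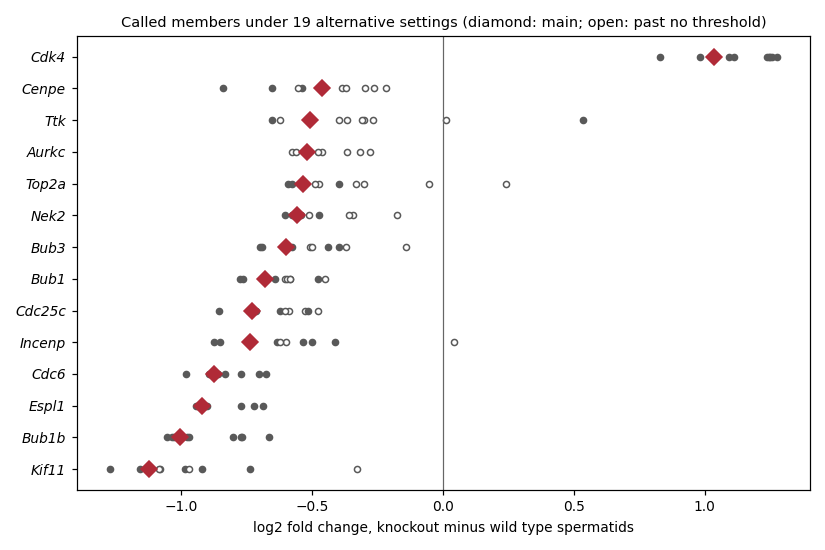
Log2 fold change between knockout and wild type spermatids (horizontal axis) for the 14 called genes under the main analysis (red diamonds) and 19 alternatives (circles, open where the threshold was not passed). The Cdk4 circles run from 0.83 to 1.27 and are all filled, the Bub1b, Espl1 and Cdc6 circles are all filled left of 0, and Ttk, Top2a and Incenp have circles on both sides of 0.

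Other genes of the same pathways were read in the same way. Of 40 further replication genes, which include origin recognition, polymerase and nucleotide synthesis genes, 27 were lower (67.5%) and 6 higher (15%) in wild type spermatids, against 29.4% and 33.7% of all genes. Cdc7, the kinase that fires origins (-3.73), and Rpa3, a subunit of the single-strand binding protein (-3.48), fell most, and Rrm2, a ribonucleotide reductase subunit (2.79), and Pole2, a polymerase subunit (1.76), rose most on the log2 scale. Between genotypes 0 were called in spermatocytes, where 2.73% of all genes were called. In spermatids 8 were lower, led by Rrm2 (-0.92) and the polymerase subunit Pold2 (-0.69), and 1, the flap nuclease gene Fen1 (0.56), was higher. These were 20% and 2.5% of the 40 genes, against 12.9% and 6.93% of all genes.

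Of 58 measured further division genes, 30 were lower and 13 higher in wild type spermatids, from -3.87 for Sgo2a, the protector of centromeric cohesin, and -3.85 for Cks2, a CDK subunit, to 4.21 for the centromere gene Cenpi and 2.27 for the kinesin Kif2c. The shares were 51.7% and 22.4%, against 29.4% and 33.7% of all genes. Between genotypes 0 were called in spermatocytes, where 2.73% of all genes were called. In spermatids 18 were lower (31%) and 3 higher (5.17%), against 12.9% and 6.93% of all genes. Cenpk, a centromere gene, gave 500.0 and 589 in wild type spermatocytes, 596 and 661 in knockout spermatocytes, 1484 and 1355 in wild type spermatids and 640.2 and 745 in knockout spermatids. The knockout spermatids overlapped the knockout spermatocytes and lay below the wild type spermatids (-1.04 ± 0.14, limma adjusted p = 0.00132). Ncapd2, a condensin subunit, gave -0.90, and the highest gains were 0.72 for Kif2c and 0.52 for the phosphatase inhibitor gene Arpp19. The genotype effect differed between cell types for 11 genes (19%, against 6.72% of all genes), all lower in spermatids, led by Cenpk (-1.25) and the condensin gene Ncapg (-1.03).

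Of 27 genes of the CDK inhibitors and the E2F and RB families, 11 were lower (40.7%) and 7 higher (25.9%) in wild type spermatids, against 29.4% and 33.7% of all genes. Lin9 (-3.48) and Tfdp1, the E2F partner (-3.30), fell most, and Foxm1, a transcription factor of division genes (3.22), and Cdkn1c, a CDK inhibitor (2.36), rose most. Tfdp2, another E2F partner, was the 1 gene called higher in knockout spermatocytes (0.63 ± 0.12, limma adjusted p = 0.0289), or 3.7% of the 27 genes, against 2.22% of all genes. In knockout spermatids 4 were lower, led by Rbl2, an RB family gene (-0.91), and E2f8 (-0.71), and 3 were higher, shares of 14.8% and 11.1% that lay near the 12.9% and 6.93% of all genes. Cdkn1c gave 86.4 and 71.7 in wild type spermatocytes, 125 and 87.2 in knockout spermatocytes, 369 and 441 in wild type spermatids and 1013 and 1089 in knockout spermatids. Both knockout spermatid arrays lay above both wild type spermatid arrays, which lay above all spermatocyte arrays (1.38 ± 0.18, limma adjusted p = 0.00129), and Cdkn1a, another CDK inhibitor, gave 0.63. The genotype effect was lower in spermatids than in spermatocytes for 2 of the 27 genes, Rbl2 (-1.18) and Lin54 (-1.09). That share of 7.41% lay near the 6.72% of all genes called in this contrast (4.61% lower).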

How the data were processed

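Total RNA of 8 cell preparations was measured on Affymetrix Mouse Genome arrays. The deposited log2 values are normalised signals that the authors made from the array scans with RMA, which corrects background, equalises the distributions of probe signals between arrays and summarises the probes of a probe set, and the authors tested them with limma (versions not given in the sources used here). No further normalisation was applied. Since equal probe distributions are assumed, differences are relative to the other probe sets. After removal of 64 control probe sets, a mean for each of the 4 groups was fitted to 45037 probe sets with limma 3.58.1 in R 4.3.3 (lmFit and eBayes, 4 residual degrees of freedom), p-values were adjusted by the Benjamini-Hochberg method over all of them, and calls were made at 0.05. Gene names came from the platform annotation, in which 34945 probe sets had 1 symbol, 932 had several and 9160 had none. The number of arrays limits the precision. The calculation was tested on simulated data.

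The members and the other gene lists were chosen with earlier results of these data known. Values on every array are given for each member called between genotypes or in the difference between cell types, for the 10 called members with the largest change between wild type cell types, and for paralog sets. From each other list, up to 2 called genes in each direction with the largest change are named. Alternatives were another normalisation, a filter on low signal, other choices of probe set and model, a stricter threshold, and each array left out in turn. Promoter windows came from RefSeq, which held one for 34 of the 44 measured members, and 10 members, for which no window was given, were not searched.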

Additional observations from a re-analysis of the deposited data

Results flagged for a closer look

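For 8 genes the effect of the knockout, on the probe set used for each, differed between spermatids and spermatocytes by the limma contrast of the 2 effects. For Cdk4 the difference was 1.41 on the log2 scale (limma adjusted p = 0.016), from -0.38 in spermatocytes to 1.04 in spermatids. For the other 7 genes it was negative. It was -1.52 for Kif11 (adjusted p = 0.0225), where the spermatocyte effect of 0.40 was not called. It was -1.08 for Cdc6 (0.0157), -0.97 for Bub1b (0.0134) and -0.86 for Incenp (0.0425). It was -0.82 for Espl1 (0.0269), -0.78 for Bub1 (0.0454) and -0.76 for Cdc25a (0.0396). Cdc25a was called in neither cell type alone. All 8 calls were lost at a threshold of 0.01, and also without knockout spermatocyte replicate 1 or 2, without knockout spermatid replicate 1 or without wild type spermatid replicate 1.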

How the results depend on the processing

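Of the 19 alternatives, 1, a replicate block with the numbers of the wild type spermatids exchanged, was chosen after the data were seen. Calls and directions were kept under every alternative that gave a value by 25 of 35 genes in the wild type stage comparison, by 22 of 33 in the knockout stage comparison, by 4 of 14 between genotypes in spermatids, and by 0 of 8 for the difference between cell types. Between genotypes in spermatids, the number lower (13) became 5 after cyclic loess, 7 with equal medians of the expressed probe sets, 8 with the probe set of largest variance and 7 at an adjusted p below 0.01. The number higher (1) became 2 after quantile normalisation, with equal medians, with the probe set of largest variance and with the mean over the probe sets, Ttk joining Cdk4 in the third of these and Ccnd1 in the others. Leaving out 1 array gave 3 to 15 lower and 1 higher, the lowest counts being 3 without knockout spermatid replicate 1 and 4 without wild type spermatid replicate 1. For the difference between cell types, the number lower (7) became 3 after cyclic loess, after quantile normalisation and with equal medians, 12 with an intensity trend and 0 at 0.01. The number higher (1) became 2 after quantile normalisation, with equal medians and with the mean over the probe sets, 3 with the probe set of largest variance and 0 at 0.01. Leaving out 1 array gave 0 to 9 lower and 0 to 1 higher there, and 0 calls without knockout spermatocyte replicate 1 or 2, knockout spermatid replicate 1 or wild type spermatid replicate 1, and the number lower was 4 without wild type spermatocyte replicate 2, 3 without knockout spermatid replicate 2 and 2 without wild type spermatid replicate 2. Equal medians gave 18 higher genes in the knockout stage comparison (11). Between genotypes in spermatocytes, 1 gene was lower with the probe set of largest variance (Mcm2, -0.88), and 1 was higher without wild type spermatocyte replicate 1 (Aurkb, 0.73), so that leaving out 1 array gave 0 to 1 higher and 0 lower. Leaving out 1 array gave 14 to 17 higher and 17 to 20 lower genes in the wild type stage comparison, and 9 to 12 and 20 to 23 in the knockout. The cause of these shifts was not tested. A group left with 1 array is assumed to vary like the others.

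Some called genes changed sign. With the probe set of largest variance, the wild type stage difference became -0.41 for Ccna2, -3.20 for Plk4, -1.28 for Incenp and for Bub1, and -2.95 for Kif11, and the knockout stage difference became -0.50 for Ccnd1, -0.39 for Ccna2 and -1.02 for Incenp. The same choice gave 0.041 for Incenp, 0.54 for Ttk and 0.24 for Top2a between genotypes in spermatids, and 0.25 for Incenp between cell types. With the mean over the probe sets, the wild type stage difference was -0.76 for Plk4, -0.29 for Bub1 and -1.18 for Kif11, the knockout stage difference was 0.068 for Ccnd2, and Ttk gave 0.014 between genotypes in spermatids. With equal medians, Birc5 gave 0.0011 in the wild type stage comparison, and Ccnd2 gave 0.13 and Kif11 0.039 in the knockout one.

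The replicate numbers did not pair the arrays, since the correlations of the deviations of same-numbered arrays lay between -0.23 and 0.22. With the replicate block in the model, 13 genes were lower and 1 higher between genotypes in spermatids, 5 were lower and 1 higher for the difference between cell types, and 0 were called in spermatocytes. With the crossed replicate block the counts were 13 and 1, 7 and 1, and 0. In the stage comparisons the block gave 15 higher and 20 lower in the wild type and 11 and 21 in the knockout.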

Other observations

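Markers of cells other than spermatocytes, spermatids and Sertoli cells were also read. Of 14 measured markers of spermatogonia and early spermatocytes, 1 was lower in knockout spermatocytes and 2 were higher in knockout spermatids by limma. These were 7.14% and 14.3%, against 0.511% and 6.93% of all genes, and 7 of the 14 stayed below a signal of 100 on every array. Their summed signal was 9316 to 11843 in the spermatocyte groups and 2657 to 3045 in the spermatid groups, with overlap between genotypes in both cell types. Of 6 measured Leydig cell markers, 0 were called between genotypes in either cell type by limma. Of 11 peritubular and vascular markers, 2 were higher (18.2%) and 1 was lower (9.09%) in knockout spermatids. Of 8 blood and immune markers, 1 was higher there (12.5%). Of all genes, 6.93% were higher and 12.9% were lower. The summed signal of the 8 markers was 763 and 831 in knockout spermatids, against 655 and 662 in wild type spermatids. With so few genes per list, these counts are not read as a result about other cells.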
